A study of Homo sapiens with 6 samples.

Results

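Cholesterol and fatty acid synthesis was described through 31 genes of the known pathways: the enzymes that make mevalonate and farnesyl diphosphate, the enzymes that turn these into cholesterol, the sterol sensing system, the enzymes of fatty acid synthesis, elongation and desaturation, and lipoprotein lipase. Members were chosen by symbol, and all 31 had a row among the 34495 rows of the gene count table. They were measured by messenger RNA sequencing in K562, an established human erythroleukemia line, in 3 wild-type libraries and 3 libraries whose labels read ARID4B knockout. Both genotypes grew in RPMI medium with fetal bovine serum, and no other allele or agent is named in the labels. The source label of the knockout libraries spells the line K565, while their cell line label and title read K562. How the knockout was made, and whether libraries of a genotype are separate cultures or clones, are details the labels do not state. The p-values therefore describe the spread among these libraries, which may not be that among independent cultures. The spread was much larger among knockout than among wild-type libraries, and its source was not tested.

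Cells make cholesterol from acetyl-CoA through mevalonate, isoprenoid diphosphates, squalene and lanosterol, and they make fatty acids from the same acetyl-CoA through malonyl-CoA. The genes of both routes are known targets of the sterol regulatory element-binding proteins (SREBPs), membrane-bound transcription factors encoded by SREBF1 and SREBF2. When sterols are scarce, SCAP escorts the SREBPs to the Golgi for cleavage, and when sterols are plentiful, the INSIG proteins hold SCAP back in the endoplasmic reticulum. Serum in the medium supplies lipoprotein cholesterol, which cultured cells take up beside what they make.

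ARID4B encodes a subunit of the SIN3-HDAC corepressor complex. Its level in CPM (counts scaled to a fixed library size by TMM) was 38.4, 41 and 40.9 in wild-type replicates 1 to 3 and 8.52, 7.22 and 7.68 in knockout replicates 1 to 3, a log2 fold change of -2.36 (SE 0.10, edgeR adjusted p = 0.000132) in the direction the labels give. The gene lies on chromosome 1 at 235294498 to 235491532 (hg19). Sequencing depth was between 21701404 and 30346244 estimated counts a library. The biological coefficient of variation was 4.8% among wild-type and 32.3% among knockout libraries. The K562 erythroid markers HBG1, HBG2, HBE1, HBZ, GATA1, TFRC and KLF1 were all present, and their summed level ran from 16351 to 17770 CPM in wild type and from 15723 to 29435 CPM in the knockout. The sum is mostly globin and hides opposite moves. HBE1 went from 2567 to 2950 CPM in wild type to 3376 to 10972 CPM in the knockout. KLF1 went from 170 to 181 CPM to 104 to 142 CPM, and TFRC from 1011 to 1074 CPM to 535 to 897 CPM. HBG1, HBG2, HBZ and GATA1 overlapped between the genotypes. Summed megakaryocyte and platelet markers ran from 3.62 to 4.43 CPM in wild type and from 32.5 to 117 CPM in the knockout, and 3 of these 8 genes were under 1 CPM in every library. The part of this shift in the results that follow was not tested. In bulk RNA, fewer cells expressing a gene and less RNA per cell cannot be told apart.

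Most lipid synthesis genes did not pass the test between the genotypes. Among 13696 genes tested with edgeR's quasi-likelihood test, 33.7% had a Benjamini-Hochberg adjusted p under 0.05, 18.3% higher and 15.4% lower in the knockout. Of the 31 members, all of which passed the filter on low counts, 2 rose (SQLE and HMGCS1), 5 fell (LPL, ACAT2, ACACA, FADS1 and ACLY) and 24 did not pass, so 22.6% were called. The members' median log2 fold change was -0.02, beside 0.02 over all tested genes. Of the members, 1 differed at least 2-fold and passed (LPL), beside 12.5% of all tested genes. The knockout libraries were all higher than wild type for 3 members and all lower for 7, where 26.6% and 25.7% of all tested genes did so. Scaling on totals without TMM factors shifted the median over all genes by 0.11 (log2) and left 2 of the 5 falls (LPL and FADS1) and both rises, with a members' median of 0.09 beside 0.13 over all genes. Without wild-type replicate 1, 2 or 3, 1 member rose each time and 1, 0 and 1 fell. Over all genes these fits called 1243, 1156 and 1207 higher and 1106, 941 and 971 lower, beside 2512 and 2107 with all libraries. Without knockout replicate 1, 2 or 3, 2, 1 and 1 members rose and 8, 6 and 9 fell. Over all genes these fits called 2908, 2632 and 2921 higher and 2548, 2221 and 2516 lower.

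**Figure D1:**
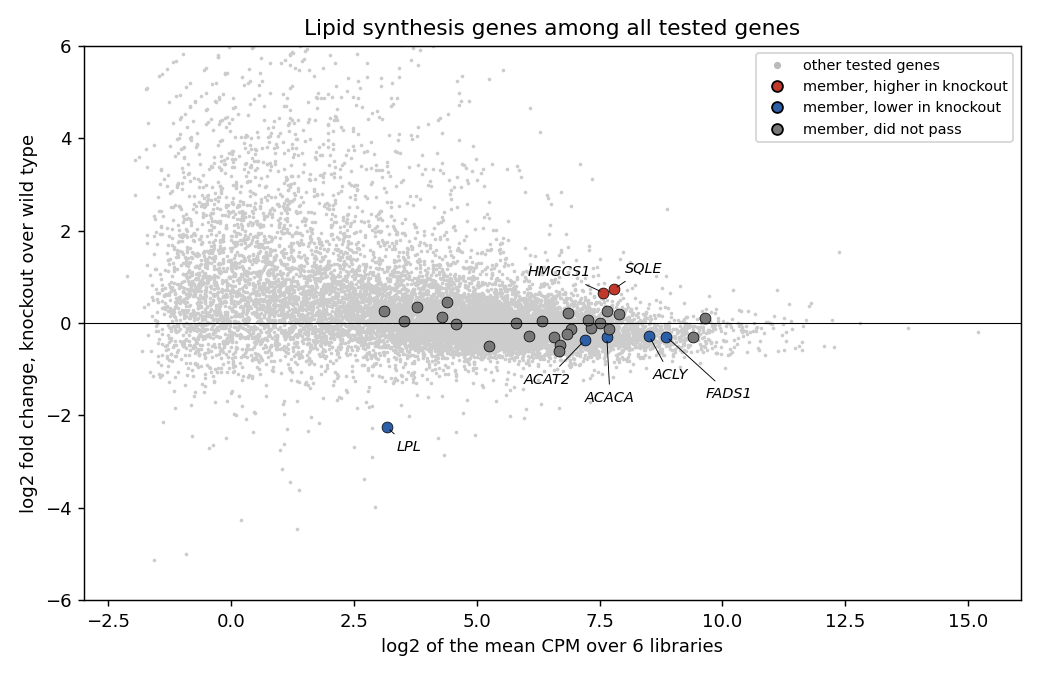
Each point is a tested gene, with the log2 of its mean CPM over the 6 libraries on the horizontal axis and the log2 fold change of knockout over wild type on the vertical axis; grey points are other genes, of which 79 lie beyond the vertical axis, and coloured points are the 31 members by test result. The members sit within 1 log2 unit of no change except LPL at -2.26.

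Wild-type K562 cells expressed every step of both routes. Counts per kilobase of exon, which allow levels of different genes to be set side by side, were computed with exon lengths from GENCODE release 29, an annotation other than the one behind the counts. A gene's length was that of all its annotated exons joined across transcripts, so the order of levels also depends on that annotation. On that scale the highest wild-type level was that of SCD, the desaturase that makes monounsaturated fatty acids, at 144 ± 4.94 CPM per kilobase (SD, n = 3). FDPS (farnesyl diphosphate synthase) followed at 110 ± 3.19, then ACLY (ATP citrate lyase, which supplies cytosolic acetyl-CoA) at 91.3 ± 4.12 and FASN (fatty acid synthase) at 86.9 ± 5.05, and the last of these differed by less than its spread from ACLY. The lowest levels were those of INSIG2 at 3.04 ± 0.339, the sterol carrier STARD4 at 3.22 ± 0.0271 and LPL at 3.90 ± 0.135 CPM per kilobase. The level of INSIG1 was 59.0 ± 0.664 CPM per kilobase, well above that of INSIG2.

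Reference promoter windows are shown for 3 members: SREBF2 with a sterol regulatory element core, INSIG1 with an E-box, and HMGCS1, which rose, with CCAAT boxes alone. They were picked after the values were seen, because HMGCS1, ACLY, ACACA and FADS1, the members past the test whose windows were searched, had neither the sterol element nor the E-box there. The windows of SQLE, LPL and ACAT2, the other called members, were not searched. The windows are RefSeq's, on GRCh38.p14, from 250 bases before to 50 bases after a gene's start, read 5′ to 3′ on the gene's strand. HMGCS1 has 2 windows in the table and the one with more matches is shown (chr5:43313363-43313662, minus strand). INSIG1 lies at chr7:155297628-155297927 and SREBF2 at chr22:41832855-41833154, both on the plus strand. Capitals mark CCAAT boxes (here as ATTGG on the other strand), the E-box CACGTG in INSIG1 and the sterol regulatory element core TCACNCCAC in SREBF2.
HMGCS1: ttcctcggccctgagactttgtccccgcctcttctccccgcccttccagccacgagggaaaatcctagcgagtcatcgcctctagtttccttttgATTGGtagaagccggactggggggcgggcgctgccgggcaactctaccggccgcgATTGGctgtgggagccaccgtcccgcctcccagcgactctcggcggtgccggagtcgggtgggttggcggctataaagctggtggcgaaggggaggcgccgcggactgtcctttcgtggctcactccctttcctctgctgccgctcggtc
INSIG1: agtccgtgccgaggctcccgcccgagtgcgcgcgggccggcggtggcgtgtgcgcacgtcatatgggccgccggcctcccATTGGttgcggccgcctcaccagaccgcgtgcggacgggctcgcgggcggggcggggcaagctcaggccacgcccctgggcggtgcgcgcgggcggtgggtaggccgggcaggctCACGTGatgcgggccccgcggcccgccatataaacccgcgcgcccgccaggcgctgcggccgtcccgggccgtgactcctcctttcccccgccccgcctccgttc
SREBF2: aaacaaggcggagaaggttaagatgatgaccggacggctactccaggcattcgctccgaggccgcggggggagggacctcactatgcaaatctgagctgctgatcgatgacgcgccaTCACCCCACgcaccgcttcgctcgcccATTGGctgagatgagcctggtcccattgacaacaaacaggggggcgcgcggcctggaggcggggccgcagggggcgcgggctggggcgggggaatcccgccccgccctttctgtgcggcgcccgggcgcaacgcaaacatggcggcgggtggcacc

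RefSeq windows on chromosome 8, where SQLE lies, were left out for the members and for all genes alike. Among the remaining windows, 26 members were matched by symbol. Searched on both strands, the CCAAT box, to which the factor NF-Y binds beside SREBPs at many sterol genes, was present in 19 of these 26 members and in 39.7% of all 27305 genes with a window. The sterol element core was found in 1 of the 26 (SREBF2) and in 1.39% of all genes, and the E-box in 4 (ELOVL5, INSIG1, LSS and SCAP) and in 8.77%. In the printed windows the matches did not overlap each other. The CCAAT box was present in members that rose (HMGCS1), fell (ACACA and ACLY) and did not pass, and FADS1, which fell, had none of these letters in its window. A match describes the letters only.

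The clearest rise was that of SQLE (chromosome 8, 126010720 to 126034525 on hg19), the squalene epoxidase that adds oxygen to squalene and is a rate-limiting step of the sterol branch. Its level was 159, 169 and 172 CPM in wild-type replicates 1 to 3 and 299, 292 and 244 CPM in knockout replicates 1 to 3. All knockout libraries lay above all wild-type libraries, and replicate 3 was the lowest of them. The log2 fold change was 0.74 (SE 0.09, edgeR adjusted p = 0.00271), a 1.67-fold higher level. The call held in all 14 alternative calculations, with adjusted p up to 0.0242. The 50 nearest tested genes on its chromosome had median log2 differences of 0.01, -0.10 and -0.10 in knockout replicates 1 to 3. In the authors' deposited table, SQLE had a log2 fold change of 0.996 with an adjusted p of 0.0105.

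The mevalonate steps upstream held 1 enzyme of 7 that rose and 1 that fell, beside 18.3% and 15.4% of all tested genes. The median over the 7 was 0.05 (log2 fold change). Without wild-type replicate 1, 2 or 3, 0 rose and 0 fell, and without knockout replicate 2 or 3, 0 rose. HMGCS1 (chromosome 5, 43287572 to 43313614 on hg19), the cytosolic HMG-CoA synthase, had levels of 140, 153 and 152 CPM in wild type and 161, 240 and 301 CPM in knockout replicates 1 to 3. Knockout replicate 1 stood just above the wild-type range, while the other two were well above it. Its log2 fold change of 0.66 (SE 0.21) lay at the edge of the threshold with an edgeR adjusted p of 0.0488. The call ended without any of wild-type replicates 1 to 3 (adjusted p 0.133 to 0.162), without knockout replicate 2 (0.0979) or 3 (0.0948), with limma-voom (0.0708) and with no expression filter (0.0605).

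ACAT2, the cytosolic thiolase that joins acetyl-CoA units just before HMG-CoA synthase acts, fell instead. It measured 164, 166 and 167 CPM in wild type and 121, 117 and 147 CPM in the knockout, with no overlap between the genotypes. Its log2 fold change was -0.37 (SE 0.10, edgeR adjusted p = 0.0255). The test missed the threshold without wild-type replicate 1, 2 or 3 (adjusted p 0.0778 to 0.0867), on totals without TMM factors (0.0715), under upper quartile scaling (0.058) and with an offset for neighbouring genes (0.108). ACAT2 (chromosome 6, 160182989 to 160200087 on hg19) shares 558 bases with the end of TCP1, a chaperonin gene with a mean count of 26619 beside 3717 for ACAT2. TCP1 had levels of 1170, 1199 and 1199 CPM in wild type and 1048, 887 and 798 CPM in the knockout, a log2 fold change of -0.38 (adjusted p = 0.0269). The labels do not state if strand was used in counting, and the share of TCP1 reads in the ACAT2 row was not tested.

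The other mevalonate enzymes did not pass. The kinases MVK and PMVK measured 24.3 ± 1.61 and 18.8 ± 0.535 CPM in wild type (SD, n = 3) and 23.9 ± 7.42 and 20.5 ± 3.18 CPM in the knockout. The decarboxylase MVD went from 79.5 ± 6.35 to 82.0 ± 21.1 CPM and FDPS from 181 ± 5.26 to 182 ± 41.6 CPM. In each of these 4 genes the genotypes overlapped and the SD of the knockout was several times that of wild type. IDI1, the isomerase of isopentenyl diphosphate, was at 101, 108 and 112 CPM in wild type and 111, 118 and 143 CPM in the knockout (log2 fold change 0.21, edgeR adjusted p = 0.178).

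Around squalene epoxidase, the other enzymes of the sterol branch did not pass. Of 9 squalene and sterol enzymes 1 rose, 0 fell and 8 did not pass, and their median was -0.01 on the log2 fold change scale. Over all tested genes 18.3% were called higher and 15.4% lower. At an unadjusted p under 0.05 in the same edgeR test 1 was lower (EBP), as it was with DESeq2, while limma-voom called 0 lower. Without knockout replicate 1 or 3, 1 fell. EBP, a sterol isomerase, measured 130, 121 and 122 CPM in wild type and 49.1, 93.5 and 102 CPM in knockout replicates 1 to 3. All knockout libraries lay below wild type, with replicate 1 far below the other two (log2 fold change -0.61, SE 0.25, edgeR adjusted p = 0.102). Without knockout replicate 1 the difference was smaller and passed (-0.35, adjusted p = 0.0105). EBP lies on the X chromosome, where its 50 nearest tested genes had a median of -0.37 in knockout replicate 1, and -0.04 and 0.09 in replicates 2 and 3. EBP also passed with the neighbouring genes as an offset (-0.54, adjusted p = 0.033), with DESeq2 (-0.61, 0.0393) and with limma-voom given a variance for each genotype (-0.69, 0.0243).

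CYP51A1, the lanosterol demethylase, measured 116, 121 and 124 CPM in wild type and 65.8, 74.3 and 121 CPM in the knockout. Knockout replicates 1 and 2 were below wild type and replicate 3 was within its range, so that the gene missed the threshold (log2 fold change -0.46, edgeR adjusted p = 0.144) but passed without knockout replicate 3 (-0.79, adjusted p = 0.00219). With all libraries kept it also passed with the neighbourhood offset (-0.67, adjusted p = 0.042) and with limma-voom given a variance for each genotype (-0.52, adjusted p = 0.038), and each of these alternatives called 2 enzymes of the list lower, CYP51A1 and EBP. LSS, lanosterol synthase, had the same order, with 99.6, 107 and 107 CPM in wild type and 63.7, 90.8 and 100 CPM in the knockout (-0.30, adjusted p = 0.195). FDFT1, squalene synthase, measured 223 ± 2.13 and 256 ± 51.7 CPM (n = 3 each). DHCR7, the reductase of the last step, measured 166 ± 4.24 and 154 ± 24.0 CPM, and NSDHL 55.7 ± 0.758 and 55.5 ± 11.1 CPM. The reductase TM7SF2 (12.2 ± 1.36 and 15.5 ± 2.67 CPM) and HSD17B7 (11.3 ± 0.305 and 11.7 ± 3.62 CPM) were expressed at a low level and overlapped between genotypes. HSD17B7 has pseudogene copies and its estimated counts were fractional in all 6 libraries, so its level is less certain.

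**Figure D2:**
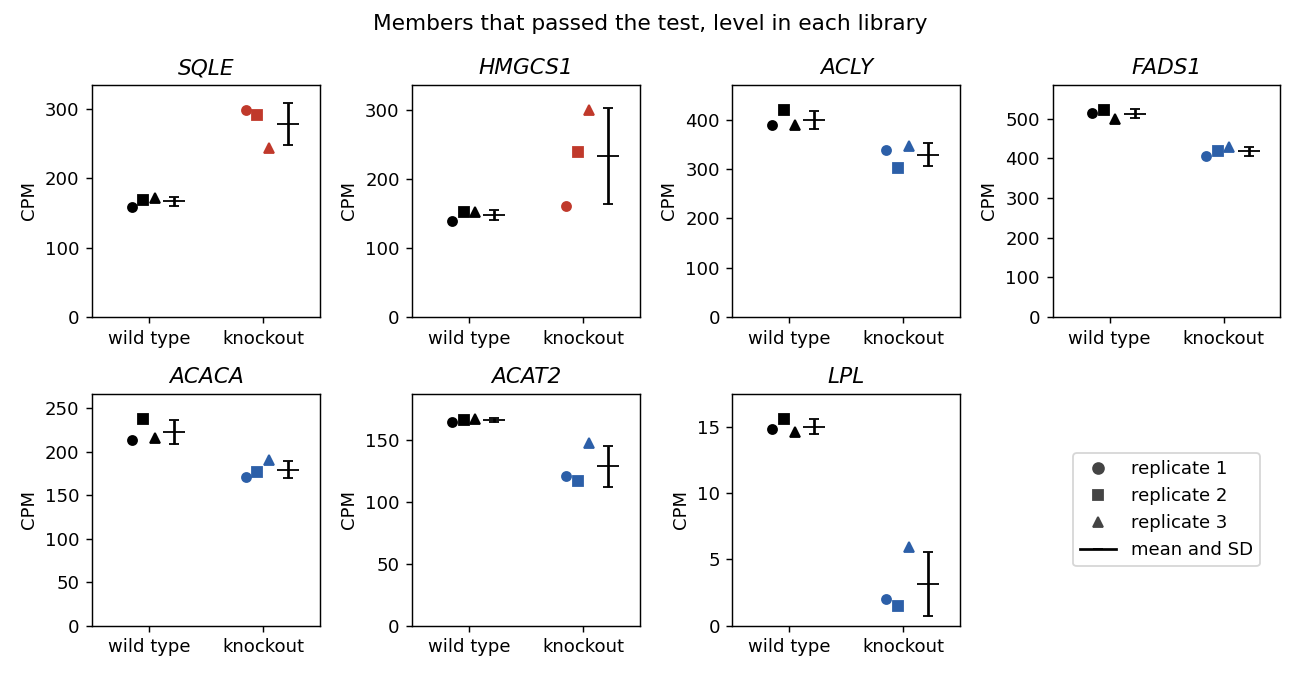
Level in CPM of the 7 members that passed the test, in each of 3 wild-type and 3 knockout libraries, with mean and SD; every axis starts at 0 and has its own range. SQLE and HMGCS1 were higher in all knockout libraries, and LPL was at 14.6 to 15.6 CPM in wild type and at 1.47 to 5.92 CPM in the knockout.

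None of the 6 genes of sterol sensing and transport passed the test, beside 33.7% of all tested genes. The count from edgeR was 0 of 6, as it was with DESeq2 and with limma-voom, and 1 gene (SCAP) had an unadjusted p under 0.05. Without knockout replicate 1 or 3, 1 fell. SREBF1, whose product drives mainly fatty acid genes, measured 132, 125 and 121 CPM in wild type and 105, 93.9 and 149 CPM in the knockout (log2 fold change -0.12, edgeR adjusted p = 0.611). SREBF2, whose product drives mainly cholesterol genes, measured 153, 153 and 144 CPM and 128, 159 and 181 CPM (0.06, adjusted p = 0.754). For both genes knockout replicate 3 stood above wild type and replicate 1 below it. SREBF1 passed as lower without knockout replicate 3 (-0.36, adjusted p = 0.0168). Its estimated counts were fractional in all 6 libraries, so its level is less certain.

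INSIG1 is itself a known SREBP target. It was at 182, 184 and 180 CPM in wild type and at 205, 140 and 310 CPM in knockout replicates 1 to 3, on both sides of the wild-type range (0.27, SE 0.26, edgeR adjusted p = 0.461). INSIG2 measured 7.88 ± 0.878 and 9.50 ± 0.760 CPM (n = 3 each). SCAP, the escort protein, went from 124 ± 7.94 to 105 ± 11.8 CPM (-0.24, adjusted p = 0.102) and passed without knockout replicate 1 (-0.34, adjusted p = 0.0152). With the neighbouring genes as an offset SCAP had -0.09 (adjusted p = 0.359). STARD4 was at 17.7, 17.8 and 18.0 CPM in wild type and 20.3, 20.2 and 32.5 CPM in the knockout (0.45, adjusted p = 0.123). Its knockout libraries were all above wild type, and replicate 3 carried most of the difference.

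Several enzymes of fatty acid synthesis were lower in the knockout. Of 8 enzymes 0 rose, 3 fell (FADS1, ACACA and ACLY) and 5 did not pass, and their median was -0.29 (log2 fold change) beside 0.02 over all tested genes and 15.4% called lower. At an unadjusted p under 0.05 in edgeR 0 were higher and 5 lower. The share of all genes at that unadjusted threshold was not computed, here or for the other lists. DESeq2 and limma-voom each called 0 higher and 3 lower, and over all 13696 tested genes they called 2505 and 2134 lower. Of the 8 fold changes 7 were below 0, also with library totals alone, where the median was -0.17 and 1 enzyme (FADS1) passed. Without wild-type replicate 1, 2 or 3, 1, 0 and 1 fell, and without knockout replicate 1, 2 or 3, 4, 4 and 5 fell.

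FADS1 and FADS2 encode neighbouring desaturases of polyunsaturated fatty acids. FADS1 (chromosome 11, 61567097 to 61584529 on hg19) measured 513, 522 and 500 CPM in wild type and 405, 419 and 428 CPM in the knockout. The genotypes were well separated and both spreads were small, with a log2 fold change of -0.29 (SE 0.06, edgeR adjusted p = 0.0088). The call was lost without wild-type replicate 2 (adjusted p = 0.0535). FADS2 measured 46.1, 45.4 and 41.5 CPM in wild type and 21.7, 39.5 and 33.6 CPM in the knockout, all lower, with replicate 1 lowest (-0.49, SE 0.21, adjusted p = 0.109), and passed without knockout replicate 2 (-0.69, adjusted p = 0.0386) and with a variance for each genotype in limma-voom (-0.55, adjusted p = 0.0429). Their rows overlap by 802 bases, so reads there could be counted for either gene.

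ACLY and ACACA make the building blocks of the chain. ACLY was at 390, 420 and 389 CPM in wild type and 339, 302 and 347 CPM in the knockout (-0.28, SE 0.08, edgeR adjusted p = 0.0292). ACACA, acetyl-CoA carboxylase, was at 213, 238 and 216 CPM and at 171, 177 and 190 CPM (-0.31, SE 0.07, adjusted p = 0.0194). For both enzymes every knockout library was below every wild-type library. Neither call held without wild-type replicate 1, 2 or 3 (adjusted p 0.0713 to 0.106 for ACLY and 0.0514 to 0.0832 for ACACA), on totals without TMM factors (0.144 and 0.0767) or under upper quartile scaling (0.0895 and 0.0502). With the neighbouring genes as an offset, ACACA had -0.17 (adjusted p = 0.11) and ACLY -0.27 (0.0242). With the replicate number as a block, ACLY had an adjusted p of 0.0804.

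The other fatty acid enzymes did not pass. FASN measured 764, 774 and 694 CPM in wild type and 559, 539 and 721 CPM in the knockout, with replicate 3 inside the wild-type range (-0.29, edgeR adjusted p = 0.1). Without knockout replicate 3 it passed (-0.45, adjusted p = 0.00628). ELOVL6, which elongates saturated and monounsaturated chains, was at 67.2, 76.7 and 75.4 CPM and at 49.5, 55.4 and 76.0 CPM, with knockout replicate 3 again inside the wild-type range, and passed without knockout replicate 3 (-0.49, adjusted p = 0.0117). ELOVL5, which elongates polyunsaturated chains, measured 216 ± 6.31 and 197 ± 33.1 CPM (n = 3 each) and passed without knockout replicate 1 (-0.28, adjusted p = 0.0168). Its estimated counts were fractional in all 6 libraries. With the neighbouring genes as an offset, FASN had -0.13 (edgeR adjusted p = 0.367), ELOVL6 -0.27 (0.222) and ELOVL5 -0.07 (0.715). SCD differed from the rest of this group, at 748, 801 and 768 CPM in wild type and 716, 693 and 1084 CPM in the knockout (0.11, adjusted p = 0.666).

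The largest change of any member was the fall of LPL (chromosome 8, 19796582 to 19824770 on hg19), the secreted lipase that frees fatty acids from circulating lipoproteins. Its level was 14.8, 15.6 and 14.6 CPM in wild type and 1.99, 1.47 and 5.92 CPM in knockout replicates 1 to 3, from 395, 456 and 337 against 51, 33 and 141 estimated counts. All knockout libraries were far below wild type, and replicate 3 kept the most. The log2 fold change was -2.26 (SE 0.50, edgeR adjusted p = 0.0146), a 4.80-fold lower mean level. The fold change ranged from -3.12 to -1.93 over the alternatives, and the test missed the threshold without any of wild-type replicates 1 to 3 (adjusted p 0.0547 to 0.0581). In the authors' deposited table LPL had a log2 fold change of -2.25 with an adjusted p of 0.0306. LPL and SQLE were the 2 of 31 members in that table, which holds 3153 genes, beside 34495 rows in the count table. Its smallest absolute log2 fold change was 0.591, and its largest unadjusted p, by the authors' unnamed test, was 0.05. HMGCS1, called higher here with a log2 fold change of 0.66, was not in it.

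LPL is known as a product of fat, muscle and macrophages. Of 5 adipocyte markers all were under 1 CPM in every library, with FABP4 and LEP at 0 throughout and a summed level of at most 0.13 CPM. Of 9 monocyte and macrophage markers 7 were under 1 CPM in every library and CD163 and MARCO were at 0. Their sum, mostly LYZ, ran from 20.8 to 21.9 CPM in wild type and from 16.4 to 52.4 CPM in the knockout. Apart from LYZ, the markers of both cell types were at or near 0 in wild type, where LPL was highest.

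**Figure D3:**
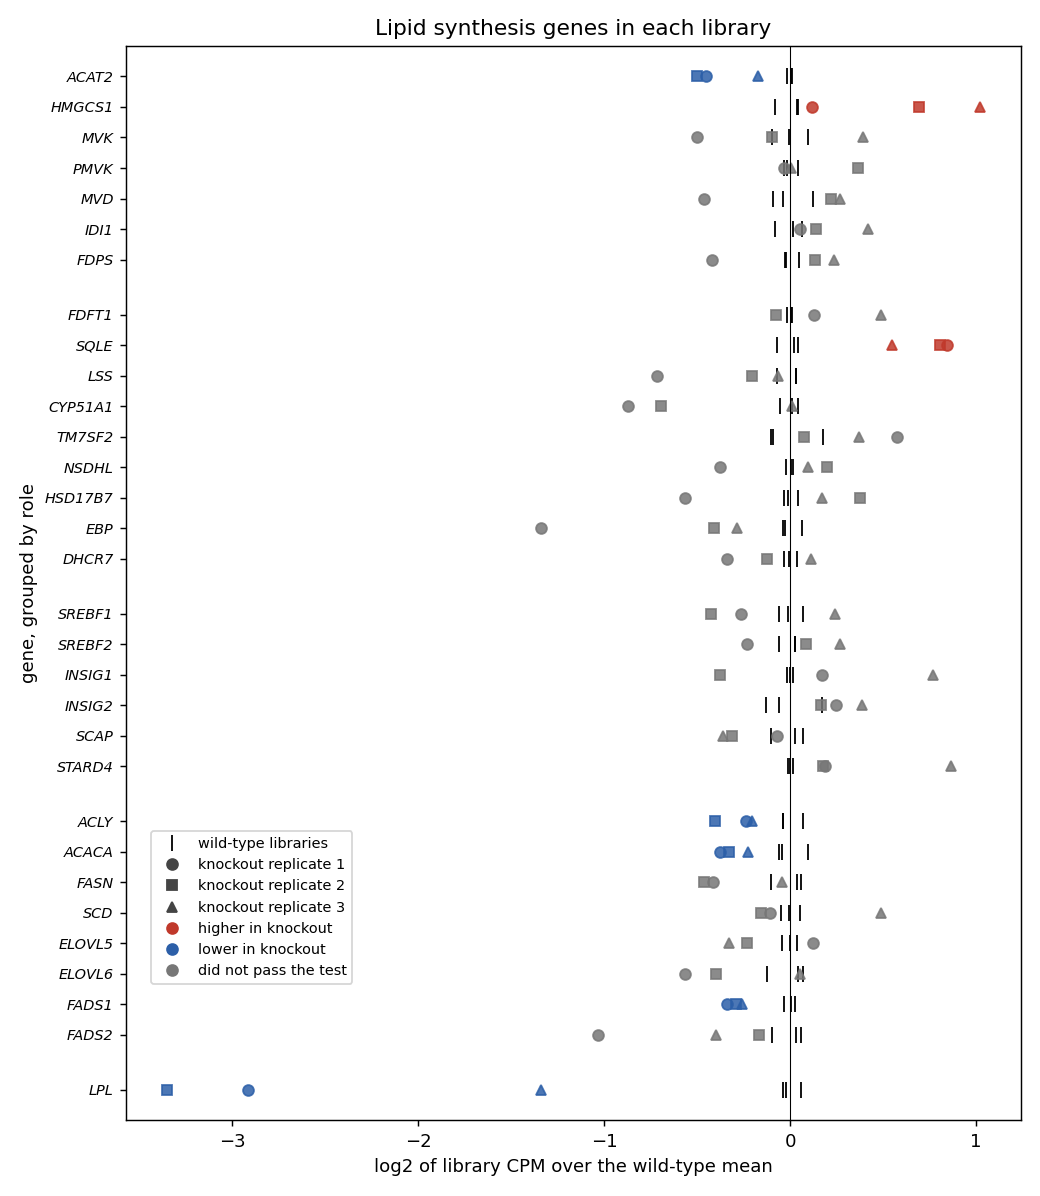
For each of the 31 members, grouped by role, the log2 of every library's CPM over the mean of wild type; vertical ticks are wild-type libraries, and symbols are knockout replicates 1 to 3 coloured by test result. Knockout replicate 3 (triangles) stands to the right of the other knockout libraries for 23 of 31 members, a count not made over all tested genes.

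The knockout libraries differed from each other for most members. The coefficient of variation had a median of 3.67% over the members in wild type and 20.2% in the knockout, beside 5.87% and 15.9% over all tested genes, and was larger in the knockout for 29 of 31 members and for 11156 of 13696 genes. Knockout replicate 3 had the highest level of the 3 knockout libraries for 23 of 31 members, and replicate 1 the lowest for 17. These counts were not made over all tested genes, so the order cannot be read as particular to the members. Relative to the wild-type mean, the median of the 16 sterol pathway enzymes was -0.40, 0.10 and 0.20 (log2) in knockout replicates 1, 2 and 3, with 11, 7 and 3 of the 16 below it. The 8 fatty acid enzymes had medians of -0.36, -0.31 and -0.22, below wild type in each knockout library. Over all tested genes the medians were 0.01, 0.00 and 0.01, computed with 0.5 CPM added. The sterol enzymes therefore stood on both sides of wild type depending on the library. The order of these libraries in summed megakaryocyte markers was the reverse, at 117, 87.2 and 32.5 CPM. That sum is mostly ITGA2B, at 71.7, 50.8 and 18.8 CPM. ITGB3 (20.3, 26.7 and 13.1 CPM), PF4 and VWF were instead highest in replicate 2, and the other markers in replicate 1. The part of these markers in the spread was not tested.

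**Figure D4:**
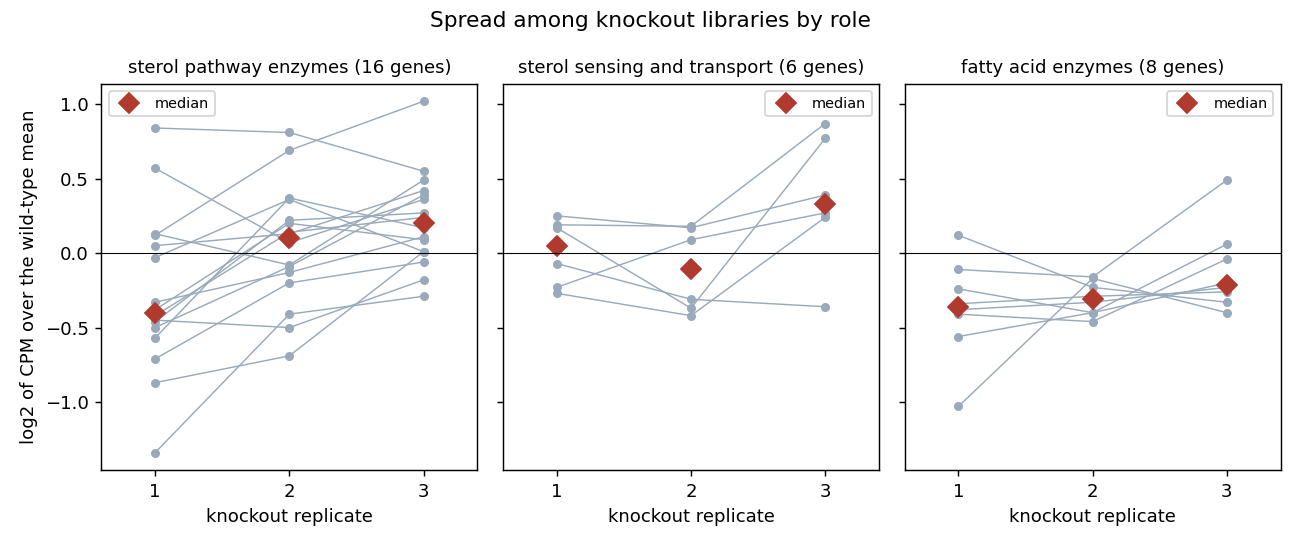
Log2 of CPM over the wild-type mean in each knockout replicate for sterol pathway enzymes (16 genes), sterol sensing and transport (6 genes) and fatty acid enzymes (8 genes); a line joins the values of 1 gene, the diamonds are medians, and the replicate numbers carry no order. Sterol enzymes have medians of -0.40, 0.10 and 0.20 and fatty acid enzymes -0.36, -0.31 and -0.22.

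The balance within pairs of related genes did not separate the genotypes. The log2 ratio of SREBF1 to SREBF2 levels was -0.25 ± 0.04 in wild type and -0.45 ± 0.28 in the knockout (SD, n = 3 each). For FADS1 over FADS2 it was 3.53 ± 0.06 and 3.77 ± 0.42. The libraries also overlapped for INSIG1 over INSIG2 and for ELOVL5 over ELOVL6, with shifts of -0.08 and 0.15. These ratios are not corrected for gene length, so only their shift between genotypes can be read.

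Other genes of lipid metabolism, outside the 31, were taken from lists of related pathways. Their counts stand beside 18.3% of all tested genes called higher and 15.4% called lower, and no test compared a list with other genes. Of 9 tested sterol and isoprenoid enzymes 1 rose and 0 fell with edgeR, and 0 were lower at an unadjusted p under 0.05, with DESeq2 or with limma-voom, while DESeq2 called 2 higher. The rise was that of AACS, which makes acetoacetyl-CoA from ketone bodies, at 9.80, 9.43 and 10.1 CPM in wild type and 15, 13.6 and 15.7 CPM in the knockout (log2 fold change 0.60, SE 0.12, edgeR adjusted p = 0.011), a call lost without any single wild-type library (0.0555 to 0.067). Without knockout replicate 1, 3 of the 9 rose, and without knockout replicate 2 or 3, 1 and 2 fell. Of 9 genes of SREBP processing and turnover 1 rose and 1 fell. Library totals in place of TMM, upper quartile scaling, DESeq2 and the neighbourhood offset each called 2 higher. SEC23A, a coat protein of the vesicles that carry SCAP and SREBPs, rose by a log2 fold change of 0.45 (adjusted p = 0.0219; 0.078 to 0.104 without any single wild-type library, when 0 of the list rose, and 0.0598 with the replicate block). TMEM97, a sterol-responsive membrane protein, had a log2 fold change of -0.37 (adjusted p = 0.0117; 0.0529 and 0.0599 without wild-type replicate 2 or 3, when 0 fell). Without knockout replicate 1, 2 rose and 2 fell.

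Of 10 tested genes of sterol uptake, storage and efflux 3 rose and 1 fell, so 40% were called beside 33.7% of all tested genes. NPC2, which hands cholesterol out of lysosomes, was at 8.18, 8.3 and 8 CPM in wild type and 18.5, 26.5 and 30.6 CPM in the knockout (log2 fold change 1.62, SE 0.19, edgeR adjusted p = 0.00242). NR1H3, the liver X receptor alpha that senses oxysterols, was at 5.63, 5.26 and 5.62 CPM and at 11.3, 12.6 and 11.7 CPM (1.11, SE 0.14, adjusted p = 0.00268). Both were higher in every knockout library and held in all 14 alternatives. LRP8, a lipoprotein receptor, fell from 38.0, 36.7 and 38.1 CPM to 20.3, 13.8 and 26.6 CPM (-0.89, SE 0.22, adjusted p = 0.0214), a call lost without any single wild-type library (0.0685 to 0.0737), when 0 of the list fell. Without knockout replicate 3, 5 rose and 2 fell.

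Of 19 tested genes of fatty acid elongation, activation and supply, 4 rose and 3 fell. ELOVL7, an elongase of long saturated chains, was at 2.70, 3.04 and 3.98 CPM in wild type and 24.7, 38.7 and 44.4 CPM in the knockout. Every knockout library was many times above wild type (log2 fold change 3.47, SE 0.27, edgeR adjusted p = 0.000769), and the call held in all 14 alternatives. ACACB, the mitochondrial carboxylase, rose to 2.03, 1.83 and 2.94 CPM from 0.901, 1.13 and 0.865 CPM (1.23, adjusted p = 0.0218; 0.0743 to 0.107 without any single wild-type library, 0.0651 with the replicate block and 0.0516 with no expression filter). TECR, the reductase of the elongation cycle, had a log2 fold change of -0.38 (adjusted p = 0.00827) that held in all 14 alternatives. PTPLB, a dehydratase of that cycle, fell by 1.02 (adjusted p = 0.019; 0.0752 to 0.096 without any single wild-type library, 0.0653 with the replicate block and 0.0715 with a variance for each genotype). Without any wild-type library 2 of the list rose and 1 fell, and without knockout replicate 3, 5 fell.

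Of 10 tested genes of glycerolipid synthesis and lipid droplets 0 rose and 2 fell. These were the acyltransferases GPAM (log2 fold change -0.49, edgeR adjusted p = 0.0102) and AGPAT2 (-0.31, adjusted p = 0.0308). GPAM missed the threshold without wild-type replicate 2 or 3 (0.0563 and 0.0503). AGPAT2 missed it without any single wild-type library (0.0798 to 0.0954), without knockout replicate 2 (0.0516), on totals without TMM factors (0.141), with upper quartile scaling (0.0929), the neighbourhood offset (0.112) or the replicate block (0.0621). At an unadjusted p under 0.05 in edgeR 2 of the list were higher, DESeq2 called 1 higher and limma-voom 0. Without wild-type replicate 1, 2 or 3, 1, 0 and 0 fell; without knockout replicate 1, 2 or 3, 1, 2 and 1 rose, and 2, 1 and 3 fell.

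Of 18 tested genes of fatty acid oxidation 3 rose and 1 fell, so 22.2% were called, under the 33.7% of all tested genes. The thiolase ACAA2 and the nuclear receptor PPARD rose by log2 fold changes of 0.62 and 0.61 (edgeR adjusted p = 0.02 and 0.0101), while the hydratase ECHS1 fell by 0.54 (adjusted p = 0.00493). DESeq2 and limma-voom each called 2 lower. ECHS1 held in all 14 alternatives, while ACAA2 was lost without any single wild-type library (0.0607 to 0.0884) and with the replicate block (0.0535), and PPARD without wild-type replicate 2 or 3 (0.0572 and 0.0548). Without wild-type replicate 1, 2 or 3, 1, 0 and 0 rose, and without knockout replicate 1, 2 or 3, 2, 2 and 3 fell.

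Among 8 tested partners and relatives of lipoprotein lipase 3 rose and 1 fell. LMF1, which folds LPL in the endoplasmic reticulum, was at 0.263, 0.410 and 0.0865 CPM in wild type and 1.06, 1.2 and 1.34 CPM in the knockout (log2 fold change 2.19, SE 0.50, edgeR adjusted p = 0.0169; 0.0835 and 0.0549 without wild-type replicate 1 or 3). LIPG, endothelial lipase, was at 0.563, 0.410 and 0.433 CPM and at 1.52, 1.52 and 2.39 CPM (1.94, SE 0.34, adjusted p = 0.00688; 0.0509 without wild-type replicate 2). FABP5, a fatty acid carrier, fell by 0.56 (adjusted p = 0.0267; 0.0715 to 0.0914 without any single wild-type library, when 0 fell, and 0.0607 with library totals alone). Without wild-type replicate 1, 2 or 3, 1, 1 and 2 rose, and without knockout replicate 2, 2 fell. LMF1 and LIPG lay near 1 CPM, so few counts stand behind them.

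**Figure D5:**
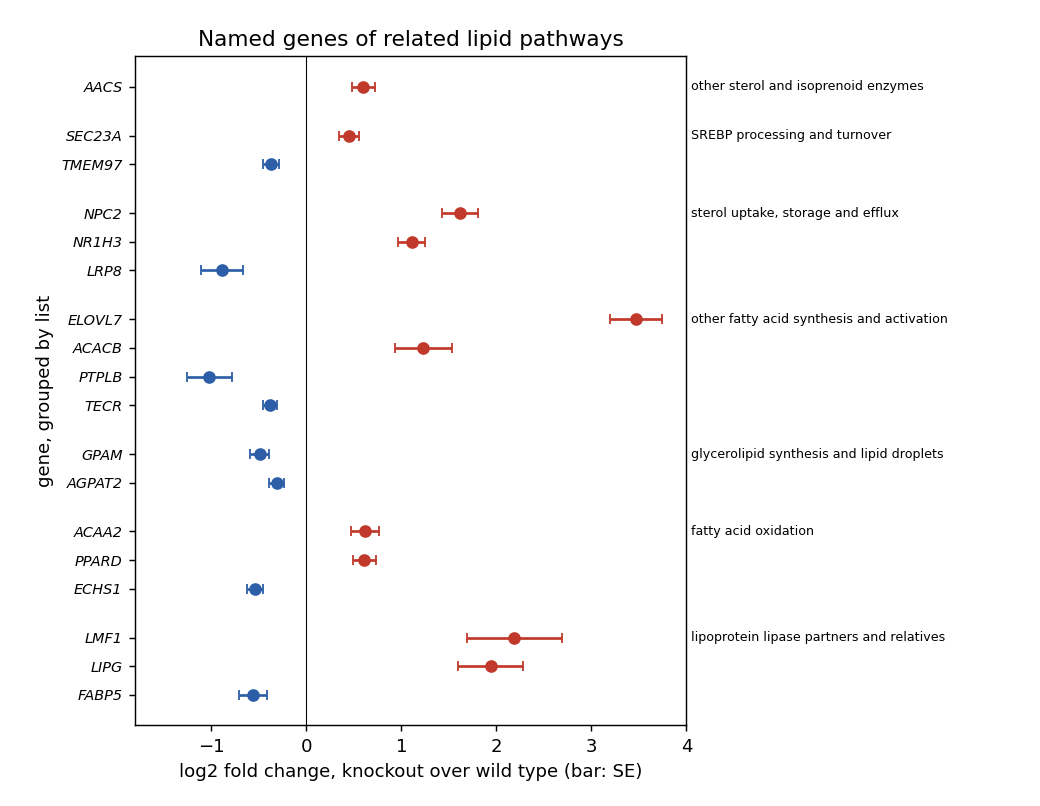
Log2 fold change of knockout over wild type with its SE for the 18 named genes of related lipid lists, grouped by list; red points were higher and blue points lower in the knockout. ELOVL7 stands highest at 3.47 and PTPLB lowest at -1.02.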

How the data were processed

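The authors deposited a table of estimated counts for each gene in each library, with no scaling applied. Per the submitters' processing notes, STAR 2.4, RSEM 1.2.14, hg19 and GRCh37 were used, their roles unstated. In a library 6.9% to 11.7% of values were not whole, since RSEM divides reads between genes. A second deposited table gives the authors' log2 fold changes and p-values, whose test the labels do not name. Symbols that a spreadsheet had turned into dates (27) were restored from the descriptions.

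Counts were rounded and tested with edgeR 4.0.16 in R 4.3.3 by its quasi-likelihood test, with TMM scaling, filterByExpr (minimum count 10) and Benjamini-Hochberg adjustment over all 13696 tested genes. SE is the log2 fold change over the square root of F. CPM was computed on TMM-scaled library sizes. Alternatives were library totals, upper quartile factors, DESeq2 1.42.0, limma 3.58.1 (voom, also with a variance per genotype), no filter, a replicate block, an offset from the 50 nearest tested genes, and leaving out each library. The calculation was checked on simulated data that had the same spread in both genotypes. The real libraries did not, so the check does not cover unequal spread.

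The members, lists and tests were chosen with earlier results of these data known. Of each related list, the 2 largest rises and falls past the threshold with at least 1 CPM were named. ERG28 and HACD1 to HACD3 were found under older symbols. Start positions had 1 added. Some genes of the related and marker lists are not reported here, and the counts and sums leave them out.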

Additional observations from a re-analysis of the deposited data

How the results depend on the processing

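The 2 rises among the members became 1 with limma-voom and 1 with no expression filter, and ranged from 1 to 2 when single libraries were left out. The 5 falls became 2 on totals without TMM factors, 2 under upper quartile scaling and 8 with a variance of its own for each genotype. They ranged from 0 to 1 without a wild-type library and from 6 to 9 without a knockout library. Over all genes 2512 were higher and 2107 lower, and 1283 lower with library totals alone. Without a wild-type library 1156 to 1243 were higher and 941 to 1106 lower. Without a knockout library 2632 to 2921 were higher and 2221 to 2548 lower. No member changed direction while past the threshold, and SQLE passed in every alternative run. The cause of these shifts was not tested. Deviations of same-numbered libraries had correlations of 0.00996 to 0.018, and those of differently numbered libraries -0.02 to 0.00703. All were near 0, with the same-numbered pairs highest. A shared effect could be hidden by the large knockout spread, so these values do not decide whether the replicate numbers mark a pairing. With the replicate block 2 members rose and 4 fell, and 1872 genes were higher and 1577 lower.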
